A study of Mus musculus with 6 samples.

Results

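Extracellular nucleotides are sensed and degraded by a small set of surface proteins. In innate lymphocytes of the mouse kidney, 8 genes grouped with this set by name or function were examined. They are the ATP-gated channels P2rx4 and P2rx7, the G protein-coupled receptors P2ry10 and P2ry14, the adenosine receptor Adora2a, and the ectoenzymes Entpd1 (CD39), Nt5e (CD73) and Cd38. P2ry10 is grouped here by its name. The genes were taken by symbol, and all 8 were found among 23841 gene identifiers and all 8 passed the filter on low counts, which left 16144 genes for testing. The RNA came from type 1 innate lymphoid cells (ILC1, a tissue lymphocyte population related to natural killer cells), sorted as CD49a+ with low to intermediate CD49b, and from conventional natural killer cells (cNK, cytotoxic lymphocytes), sorted as CD49b high. Both populations were NK1.1+, NKp46+ and CD3-, and both were taken from kidneys of C57BL/6 wild-type mice that were naive, with 3 pools each. The labels give neither the age of the mice nor how many went into a pool, and do not say that the pools are of different mice. The p-values therefore reflect only how these pools vary, which may be technical.

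ATP released by stressed cells opens P2X channels, while UDP and UDP-sugars act on P2Y receptors. CD39 degrades ATP and ADP to AMP, CD73 converts AMP to adenosine, and adenosine acting on Adora2a raises cAMP and dampens lymphocyte activation. CD38 consumes NAD, which in mice is also used by ADP-ribosyltransferases of the Art2 group to gate P2X7 on lymphocytes.

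The 6 libraries held between 22633440 and 28327265 counts. Levels below are CPM (each count scaled by library size with TMM factors). Differences are log2 fold changes, ILC1 over cNK, from edgeR's quasi-likelihood test with p adjusted over all tested genes by Benjamini-Hochberg and a threshold of 0.05. The sort was checked on Itga1 (CD49a), at 185, 116 and 110 CPM in ILC1 against 7.09, 13.7 and 12.8 CPM in cNK. Cxcr6, a receptor of tissue lymphocytes, stood at 1332 CPM or more in ILC1 and at 18.0 CPM or less in cNK, and Eomes, a T-box factor of cNK cells, at 11.6 CPM or less in ILC1 and 284 CPM or more in cNK. Mitochondrial genes made up between 1.38% and 6.53% of counts in ILC1 and between 3.15% and 12.7% in cNK, with the highest shares in ILC1 pool 3 and cNK pool 2. The summed share of 25 macrophage, monocyte and dendritic cell markers was between 0.478% and 1.07% of counts in ILC1 and between 0.122% and 0.152% in cNK. None of the 25 was at 0 in all 3 libraries of a population. In ILC1, 8 of the 25 were called higher and 0 lower, and Cd74 had the highest level (1875 ± 720 CPM in ILC1 and 270 ± 100.4 CPM in cNK, SD, n = 3 each). Their median log2 fold change was 1.33, but they did not move together. The 8 called higher were Flt3 (log2 fold change 5.38), Clec9a (3.97), Lyz2 (3.80), H2-Ab1 (2.99), Cd209a (2.95), H2-Eb1 (2.81), Cd74 (2.795) and H2-Aa (2.77). Without a call, C1qa (-0.013), C1qb (0.105) and C1qc (0.155) stood near 0, and Cx3cr1 (-2.28), S100a8 (-1.99) and S100a9 (-1.89) were lower. The SE was 1.64 for S100a8 and 1.75 for S100a9, and Cx3cr1 had a mean of 103.5 CPM in cNK. The share also counts genes with a high level in cNK, such as Itgax (mean 214 CPM) and Ccr2 (mean 363 CPM). Summed T cell markers made up between 0.0731% and 0.107% of counts in ILC1 and between 0.0404% and 0.0466% in cNK. Of these 12 markers, 1 was called higher in ILC1 and 0 lower. It was Cd3g (59.4 against 10.6 CPM, log2 fold change 2.49, edgeR adjusted p = 0.00384). The highest means in ILC1 were those of Trbc2 (355 CPM) and Trbc1 (311 CPM), while Cd3e (2.65 CPM) and Cd3d (6.39 CPM) had no call. Kidney epithelial markers made up between 0.0903% and 0.427% in ILC1 and between 0.169% and 0.675% in cNK.

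Of the 8 genes, 2 rose in ILC1 (P2rx7 and Cd38) and 1 fell (P2ry14), while 5 did not pass the test. Over all tested genes, 4.07% were called higher in ILC1, 1.69% lower and 5.76% in either direction. The median log2 fold change of the 8 genes was 0.13, beside 0.01 over all tested genes. The libraries of the 2 populations did not overlap for 4 of the 8 genes (P2rx7, Cd38, Nt5e and P2ry14), with ILC1 above for 3 and below for 1. Over all tested genes, 24.1% did not overlap, 15% with ILC1 above and 9.06% with ILC1 below. The DESeq2 Wald test called 3 of the 8 higher and 1 lower, beside 7.16% and 4.3% of all genes it tested, and limma-voom called the same 3 as edgeR, beside 5.62% in either direction. In such bulk libraries, fewer cells with a transcript and less of it in each cell cannot be told apart.

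**Figure D1:**
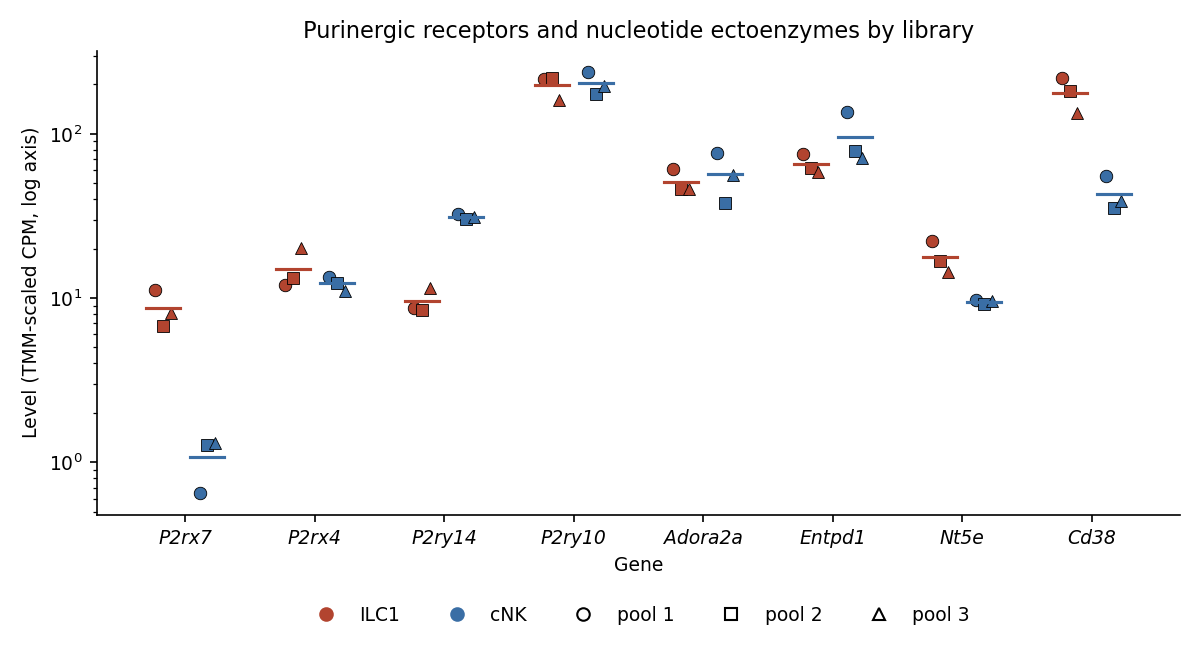
Level of each of the 8 genes in the 6 libraries, in TMM-scaled CPM on a log axis, with ILC1 left of cNK, a symbol for each pool and a line at the mean of 3 libraries. P2rx7, Nt5e and Cd38 lie above cNK in all 3 ILC1 pools, P2ry14 lies below, and the other 4 genes overlap.

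The stretches of 250 bases before a RefSeq start site of the 3 genes that passed the test, and of P2rx4, the neighbour of P2rx7 that did not, are shown to set the region beside the values that follow. They are from RefSeq on GRCm38.p6, where 7 of the 8 genes had an entry (all but Adora2a), and are printed from 5′ to 3′ on the strand of the gene. The RefSeq start sites used lie inside the GENCODE M21 gene bounds for P2rx7, Cd38 and P2ry14, so that the Cd38 window lies wholly, and the P2rx7 and P2ry14 windows in part, within those bounds. P2rx7 (chr5:122643677-122643926, plus strand), P2rx4 (chr5:122707294-122707543, plus strand) and Cd38 (chr5:43868559-43868808, plus strand) lie on chromosome 5, and P2ry14 (chr3:59153493-59153742, minus strand) lies on chromosome 3. Capitals mark matches to any of 4 motifs searched on both strands: T-box (AGGTGTGA), Runx (TGTGGTT), Ets (GGAAGT) and AP-1 (TGANTCA).
P2rx7: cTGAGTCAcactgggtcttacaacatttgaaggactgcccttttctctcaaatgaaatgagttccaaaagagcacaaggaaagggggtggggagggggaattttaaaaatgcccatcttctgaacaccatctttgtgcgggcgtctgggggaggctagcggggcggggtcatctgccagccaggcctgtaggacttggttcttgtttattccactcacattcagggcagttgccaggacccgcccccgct
P2rx4: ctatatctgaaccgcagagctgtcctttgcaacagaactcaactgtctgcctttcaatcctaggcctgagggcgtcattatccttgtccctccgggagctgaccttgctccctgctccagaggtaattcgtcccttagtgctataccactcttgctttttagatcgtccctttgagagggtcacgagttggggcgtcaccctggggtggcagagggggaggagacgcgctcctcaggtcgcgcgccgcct
Cd38: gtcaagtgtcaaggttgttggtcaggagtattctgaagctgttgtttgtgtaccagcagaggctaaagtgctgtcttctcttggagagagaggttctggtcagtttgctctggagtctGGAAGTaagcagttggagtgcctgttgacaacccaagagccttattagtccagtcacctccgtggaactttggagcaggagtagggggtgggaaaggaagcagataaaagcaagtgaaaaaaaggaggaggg
P2ry14: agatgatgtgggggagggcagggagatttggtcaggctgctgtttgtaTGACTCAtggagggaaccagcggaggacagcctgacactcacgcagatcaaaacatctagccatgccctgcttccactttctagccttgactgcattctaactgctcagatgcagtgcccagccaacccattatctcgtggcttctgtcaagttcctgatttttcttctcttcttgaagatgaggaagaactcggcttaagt
P2rx7 held 1 AP-1 match, at the upstream end of its window, P2ry14 held 1 AP-1 match that began at position -202 from the start site, and Cd38 held 1 Ets match at -132. P2rx4 held none of the 4 motifs. Over 32817 RefSeq windows of the same length, 6.8% held the AP-1 letters, 19.7% the Ets letters, 4.4% the Runx letters and 1.1% the T-box letters. The T-box and Runx letters were in none of the 4 windows printed. The other genes lie, on GRCm38 and the plus strand, on chromosome X from 107088492 to 107104974 (P2ry10), chromosome 10 from 75316877 to 75334784 (Adora2a), chromosome 19 from 40612366 to 40741602 (Entpd1) and chromosome 9 from 88327197 to 88372092 (Nt5e), and Cd38 itself spans chromosome 5 from 43868553 to 43912375.

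P2rx7, a channel that opens at high ATP, was the member with the largest difference between the populations. Its libraries had 11.1, 6.80 and 8.1 CPM in ILC1 pools 1 to 3, against 0.645, 1.27 and 1.3 CPM in cNK pools 1 to 3 (277, 199 and 225 counts against 18, 28 and 30). Every ILC1 library was above every cNK library, and the lowest ILC1 library was pool 2. Its log2 fold change was 3.02 ± 0.39 (SE; edgeR adjusted p = 0.00653), which is 8.08-fold, with a 95% interval from 2.09 to 3.94. The macrophage, monocyte and dendritic cell marker share was 0.602%, 0.478% and 1.07% in ILC1 pools 1 to 3. P2rx7 was highest in pool 1 and lowest in pool 2, the pool with the lowest share. Without ILC1 pool 3, the log2 fold change was 3.07 (edgeR adjusted p = 0.00892). The part of macrophages, monocytes and dendritic cells in the P2rx7 value was not tested.

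P2rx4, a channel that opens at lower ATP, lies 16.1 kb downstream of P2rx7 on chromosome 5 (GRCm38, P2rx7 from 122643911 to 122691432 and P2rx4 from 122707544 to 122729738). It stood at 11.9, 13.1 and 20.1 CPM in ILC1, against 13.5, 12.3 and 11.1 CPM in cNK. The populations overlapped, with ILC1 pool 3 the highest library. A log2 fold change of 0.29 ± 0.25 did not pass the test (edgeR adjusted p = 0.583), and its 95% interval from -0.31 to 0.89 ends below that of P2rx7. The level of P2rx7 over that of P2rx4, each per kilobase of merged exons, was 1.10, 0.608 and 0.474 in ILC1 pools 1 to 3 and 0.0562, 0.122 and 0.138 in cNK pools 1 to 3 (two-sided exact permutation p = 0.1, which 3 against 3 libraries cannot go below). No window of 100 bases was shared by the transcripts of both genes in GENCODE M21.

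P2ry14, a receptor for UDP-glucose and related UDP-sugars, fell in ILC1. It stood at 8.71, 8.47 and 11.4 CPM in ILC1, against 32.5, 30.2 and 31.3 CPM in cNK. The cNK libraries were close together and all above the ILC1 libraries. Its log2 fold change was -1.71 ± 0.20 (edgeR adjusted p = 0.00420), so that cNK held 3.28-fold more. The gene lies on chromosome 3 (59113855 to 59153618, GRCm38, minus strand) within Med12l, which is read from the opposite strand and shares no exon with it. Whether strand was used in counting is not stated in the labels.

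P2ry10 is named with the P2Y receptors by sequence, but is known as a receptor for lysophosphatidylserine. It had the highest level per length of the 8 genes in both populations and did not pass the test. It stood at 216, 218 and 161 CPM in ILC1, against 239, 175 and 196 CPM in cNK. The ranges of both populations overlapped over most of their width, and the log2 fold change of -0.03 ± 0.21 had a 95% interval from -0.53 to 0.46. Its neighbour P2ry10b, which lies 44.0 kb away on chromosome X, shares 2.05% of the 100-base windows of P2ry10 and had a mean of 10.3 ± 2.08 CPM in ILC1, against 13.3 ± 2.03 CPM in cNK (SD, n = 3 each; log2 fold change -0.37 ± 0.24). Reads from the shared stretch cannot be assigned to one of the pair.

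Adora2a, the receptor through which adenosine raises cAMP in lymphocytes, did not pass the test. It stood at 61.5, 46.1 and 45.9 CPM in ILC1, against 76.9, 37.9 and 56.1 CPM in cNK. Both the highest and the lowest library were cNK. The log2 fold change was -0.16 ± 0.28 (edgeR adjusted p = 0.793), with a 95% interval from -0.83 to 0.52.

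Entpd1 and Nt5e, the enzymes of the chain from ATP to adenosine among the main genes, did not pass the test. Acpp, a phosphatase of AMP from the further lists, was called higher in ILC1 and is described below. Entpd1 (CD39), which takes ATP and ADP to AMP, stood at 75.4, 61.9 and 58.7 CPM in ILC1, against 135, 78.7 and 71.3 CPM in cNK. Only ILC1 pool 1 lay within the cNK range, and cNK pool 1 stood far above the other libraries. Its log2 fold change was -0.54 ± 0.28 (edgeR adjusted p = 0.372), and -0.25 without cNK pool 1. With the mitochondrial share as a covariate Entpd1 was called lower in ILC1 (log2 fold change -0.94, edgeR adjusted p = 0.0450).

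Nt5e (CD73), which takes AMP to adenosine, stood at 22.4, 16.8 and 14.4 CPM in ILC1, against 9.67, 9.22 and 9.63 CPM in cNK. All 3 ILC1 libraries were above the cNK libraries, yet the log2 fold change of 0.91 ± 0.23 missed the threshold (edgeR adjusted p = 0.0702). The 95% interval ran from 0.38 to 1.44. The DESeq2 Wald test called Nt5e higher in ILC1 (adjusted p = 0.00654), as did edgeR with pool number as a replicate block (0.0442) and edgeR without ILC1 pool 3 (0.0481). The count of Entpd1 for each count of Nt5e was 3.37, 3.68 and 4.09 in ILC1 pools 1 to 3 and 14, 8.54 and 7.41 in cNK pools 1 to 3, without overlap. These ratios are not corrected for length and serve only to set the populations side by side.

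Cd38, which encodes an ectoenzyme that consumes NAD, had the second highest level per length in ILC1. It stood at 218, 181 and 134 CPM in ILC1, against 55.0, 35.4 and 39.1 CPM in cNK. Every ILC1 library was above every cNK library, and ILC1 pool 3, with the highest share of macrophage, monocyte and dendritic cell markers, had the lowest Cd38 of the 3. The log2 fold change was 2.04 ± 0.27 (edgeR adjusted p = 0.00669), which is 4.12-fold, with a 95% interval from 1.41 to 2.67. Without cNK pool 3 the call was lost (log2 fold change 1.97, edgeR adjusted p = 0.0558). Cd38 is also a gene of B cells, and 12 B and plasma cell markers made up between 0.0618% and 0.0737% of counts in ILC1 and between 0.0138% and 0.0197% in cNK, mostly from Ighm (606 ± 97.9 CPM in ILC1 and 176 ± 17.8 CPM in cNK, SD, n = 3 each). Of these 12 markers 8 were tested, and 1, Ighm, was called higher in ILC1. The part of B cells, or of macrophages, monocytes and dendritic cells, in the Cd38 value was not tested.

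The order of the 8 genes differed between the populations when levels were taken per kilobase of merged exons. In ILC1 it was P2ry10 (66.6 ± 11 CPM per kilobase), Cd38 (45.7 ± 10.9), Adora2a (16.7 ± 2.91), Entpd1 (11.7 ± 1.59), P2rx4 (2.14 ± 0.63), Nt5e (2.08 ± 0.48), P2rx7 (1.45 ± 0.37) and P2ry14 (0.863 ± 0.150), as mean ± SD of 3 libraries. Neighbours whose ranges overlapped in ILC1 were P2ry10 with Cd38, P2rx4 with Nt5e, and Nt5e with P2rx7. In cNK the order was P2ry10 (68.1 ± 10.9 CPM per kilobase), Adora2a (18.6 ± 6.37), Entpd1 (17.1 ± 6.28), Cd38 (11.1 ± 2.67), P2ry14 (2.83 ± 0.10), P2rx4 (1.75 ± 0.17), Nt5e (1.10 ± 0.03) and P2rx7 (0.180 ± 0.062). In cNK the ranges of Adora2a and Entpd1 overlapped, as did those of Entpd1 and Cd38. P2rx7 and P2ry14 thus exchanged the lowest place. Among 16141 tested genes with a length, P2rx7 stood at percentile 34.8 in ILC1 and 7.3 in cNK, P2ry14 at 26.1 in ILC1 and 48.3 in cNK, and Cd38 at 92.8 in ILC1 and 75.2 in cNK.

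**Figure D2:**
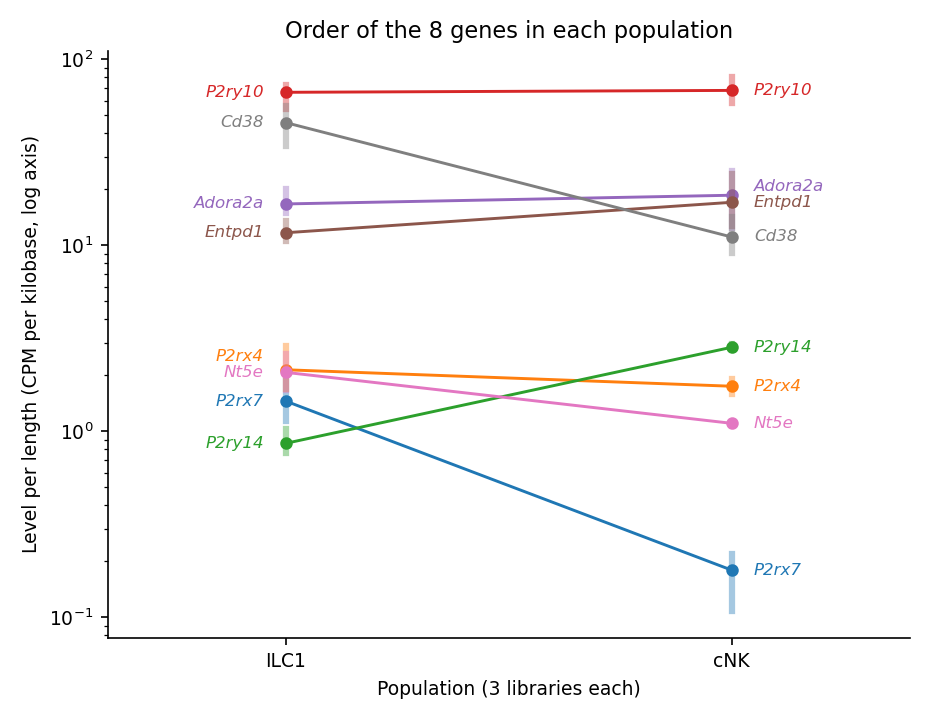
Level per length of the 8 genes, in TMM-scaled CPM per kilobase of merged exons on a log axis, in ILC1 and cNK, with the mean of 3 libraries as points and their range as thick bars. Cd38 and P2rx7 lie higher in ILC1 and P2ry14 lies higher in cNK, while P2ry10 stays at the top in both.

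Other genes of nucleotide handling were examined by lists of receptors, enzymes, transporters and signal partners. Of 77 further genes, 69 were in the count table and 57 were tested. Of these 57, 6 rose in ILC1 (Acpp, P2ry6, Art2b, Ada, Il1b and Pde4b) and 0 fell by edgeR. At an unadjusted p under 0.05, 11 were higher and 4 lower, beside 11.4% higher and 6.63% lower over all tested genes. The DESeq2 Wald test called 8 higher (the same 6 with Dpp4 and Entpd5) and 2 lower (Panx1 and Pde4d). Of all genes it tested, it called 7.16% higher and 4.3% lower. Their median log2 fold change was 0.09. By edgeR, the 6 higher of 57 stand beside 4.07% over all tested genes, and the 0 lower beside 1.69%.

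Acpp, a phosphatase whose membrane form dephosphorylates AMP outside the cell, had the largest difference of these genes. It stood at 90.8, 55.0 and 48.1 CPM in ILC1, against 2.19, 3.36 and 4.25 CPM in cNK, with no overlap. The log2 fold change was 4.31 ± 0.38 (edgeR adjusted p = 0.00174), which is 19.8-fold, and it stayed between 3.99 and 4.54 when any 1 library was left out. The count of Acpp for each count of Nt5e, again not corrected for length, was between 3.27 and 4.06 in ILC1 and between 0.226 and 0.441 in cNK. Among 12 further genes of the ectoenzyme list, Acpp was the one of 9 tested that passed, beside 5.76% over all tested genes. Whether the products of all 12 act outside the cell was not examined. Entpd5 (63.5 ± 15.5 CPM in ILC1 and 36.3 ± 5.94 CPM in cNK, edgeR adjusted p = 0.113) and Entpd7 (10.3 ± 2.24 CPM in ILC1 and 6.39 ± 0.67 CPM in cNK, edgeR adjusted p = 0.205), 2 members of the CD39 family named after their values were seen, did not pass, although their libraries did not overlap. By the DESeq2 Wald test Entpd5 was called higher in ILC1 (adjusted p = 0.0379) and Entpd7 was not (0.122). Exons of Entpd7 overlap those of Cox15 on the opposite strand, so its counts are uncertain. The same holds below for Dpp4 (with Gm13561), Il1b (with Il1bos), Adora1 (with Mybph), Pycard (with Gm45205), P2rx3 (with Ssrp1) and P2rx6 (with Slc7a4).

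Ada, which removes adenosine by deamination, stood at 33.0, 35.1 and 27.4 CPM in ILC1, against 10.7, 10.6 and 11.1 CPM in cNK. The cNK libraries were nearly equal and all below ILC1, and the log2 fold change was 1.56 ± 0.18 (edgeR adjusted p = 0.00442). Dpp4 (CD26), whose human product binds adenosine deaminase at the surface, was named after its values were seen. It stood at 21.4, 13.2 and 26.7 CPM in ILC1, against 2.29, 9.08 and 5.90 CPM in cNK. It missed the threshold (log2 fold change 1.83 ± 0.52, edgeR adjusted p = 0.108, DESeq2 adjusted p = 0.0105). Of 9 tested genes of adenosine breakdown and uptake beside the 8 main genes, Ada alone passed. The share called in either direction over all tested genes was 5.76%.

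Art2b, an ADP-ribosyltransferase that uses the same substrate as CD38 and acts on P2X7 in mice, stood at 4.50, 3.35 and 4 CPM in ILC1, against 1.22, 1.32 and 0.868 CPM in cNK. All 3 ILC1 libraries were above cNK, with a log2 fold change of 1.79 ± 0.34 (edgeR adjusted p = 0.0257). Its call was lost without any 1 library except ILC1 pool 3, with adjusted p up to 0.142. Bst1, the neighbour of Cd38 at 24.6 kb and an enzyme of the same family, was named for its position. Its libraries had 0.321, 0.956 and 3.49 CPM in ILC1 and 0.573, 2.27 and 0.607 CPM in cNK, without a call (edgeR adjusted p = 0.807). Its exons overlap those of Fbxl5 on the opposite strand, so its counts are uncertain. Art2a, a close relative of Art2b that may share reads with it, did not pass the filter, with at most 0.684 CPM in ILC1 and 0.251 CPM in cNK.

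P2ry6, a receptor for UDP, was the P2Y gene beyond P2ry14 that passed. It stood at 6.10, 5.36 and 10.3 CPM in ILC1, against 1.36, 1.86 and 1.17 CPM in cNK (log2 fold change 2.30 ± 0.38, edgeR adjusted p = 0.0151). ILC1 pool 3, with the highest macrophage, monocyte and dendritic cell marker share, had the most P2ry6. Without ILC1 pool 3 the log2 fold change was 1.97 (edgeR adjusted p = 0.0225), and the call was lost without cNK pool 1 (0.0680) or cNK pool 3 (0.0953). What part those cells had in the value was not tested.

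Among the genes of the inflammasome, which P2X7 can trigger in myeloid cells, Il1b passed and Nlrp3, Pycard, Casp1, Gsdmd and Il18 did not. The share that passed over all tested genes was 5.76%. Il1b stood at 80.9, 51.5 and 222 CPM in ILC1, against 12.1, 21.5 and 18.9 CPM in cNK (log2 fold change 2.75 ± 0.57, edgeR adjusted p = 0.0389). Its highest library, too, was ILC1 pool 3. The log2 fold change was 1.92 without that pool (edgeR adjusted p = 0.0166), and the call was lost without ILC1 pool 1 (0.0719) or without any 1 of the 3 cNK pools (0.118 to 0.165). Nlrp3, the sensor of that complex, named after its values were seen, had 0.963, 0.786 and 4.61 CPM in ILC1 and 0.716, 0.227 and 0 CPM in cNK (edgeR adjusted p = 0.302). The part of macrophages, monocytes and dendritic cells in the values of Il1b and Nlrp3 was not tested.

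**Figure D3:**
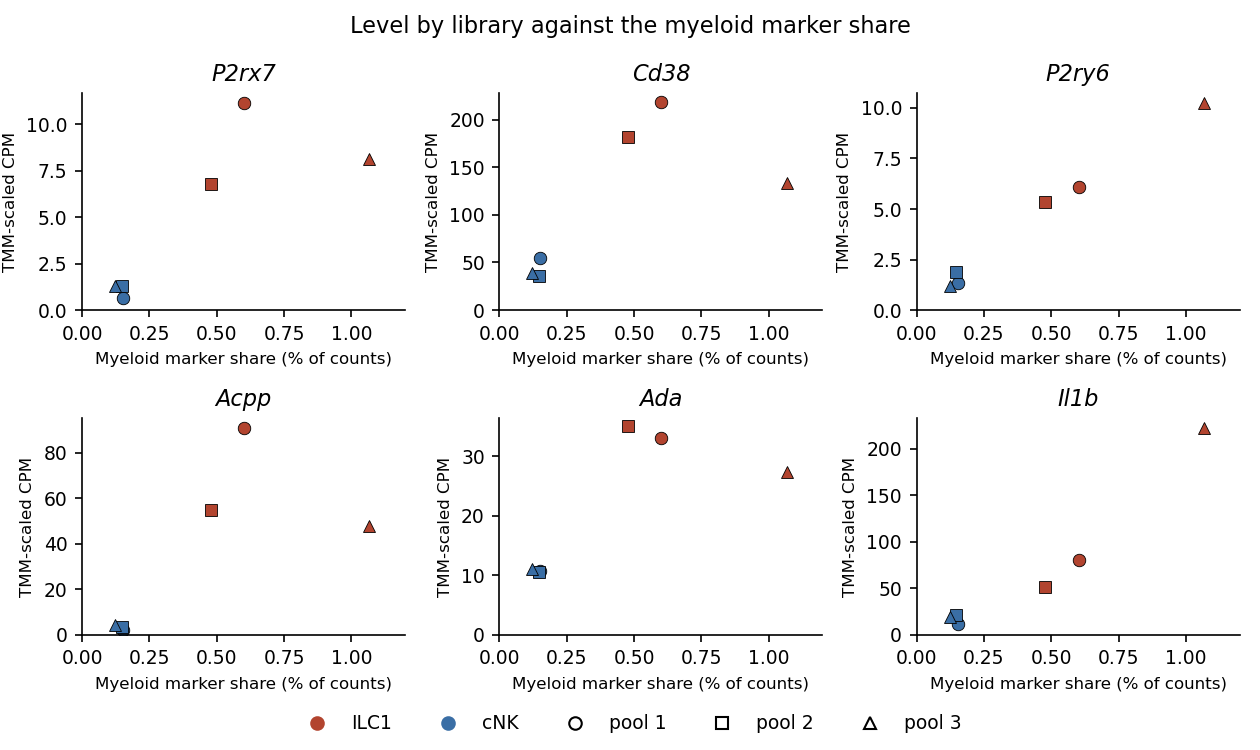
Level of 6 genes in TMM-scaled CPM in each library, plotted against the share of counts from 25 macrophage, monocyte and dendritic cell markers, with red for ILC1 and blue for cNK. P2ry6 and Il1b are highest in ILC1 pool 3, where the share is 1.07%, while P2rx7, Cd38, Acpp and Ada are highest in another ILC1 pool.

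Of 13 tested genes on the cAMP side of adenosine signalling, 1 was called, beside 5.76% over all tested genes. This was Pde4b, a phosphodiesterase that degrades cAMP. It stood at 293, 263 and 263 CPM in ILC1, against 157, 125 and 137 CPM in cNK (log2 fold change 0.97 ± 0.17, edgeR adjusted p = 0.0213). Its relative Pde4d, chosen after its values were seen, stood at 5.22, 5.22 and 5.72 CPM in ILC1, against 9.82, 9.85 and 10.6 CPM in cNK, and missed the threshold (log2 fold change -0.90 ± 0.21, edgeR adjusted p = 0.0557). The Wald test of DESeq2 (adjusted p = 0.000259) and limma-voom (0.0473) called Pde4d lower in ILC1, as did edgeR with DESeq2 size factors, upper-quartile factors, the filter of at least 1 CPM in 3 libraries or the replicate block. Both genes had separate libraries in opposite directions. The call of Pde4b was lost without ILC1 pool 1 (edgeR adjusted p = 0.0701), ILC1 pool 2 (0.0597), cNK pool 2 (0.105) or cNK pool 3 (0.147).

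None of 9 tested genes of nucleotide release was called by edgeR, beside 5.76% over all tested genes. At an unadjusted p under 0.05, 0 were higher and 2 lower, beside 11.4% higher and 6.63% lower over all tested genes. The DESeq2 Wald test called 1 lower, beside 4.3% of all genes it tested. Lrrc8c, a subunit of volume-regulated anion channels and the gene of the list with the highest CPM, not corrected for length, had a mean of 117 ± 37.7 CPM in ILC1, against 137 ± 43.1 CPM in cNK (SD, n = 3 each). Panx1, which encodes the channel pannexin 1 and was named after its values were seen, stood at 71.3, 75.6 and 54.0 CPM in ILC1, against 115, 84.8 and 104 CPM in cNK (log2 fold change -0.60 ± 0.21, edgeR adjusted p = 0.182, DESeq2 adjusted p = 0.0446).

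Several receptors of the same families were at low levels and are given after their values were seen. P2rx1 and P2rx5 averaged 1.19 and 0.810 CPM in ILC1 and 2.73 and 1.19 CPM in cNK, and P2rx3 and P2rx6 did not pass the filter. Of the adenosine receptors, Adora1 and Adora2b averaged 0.455 and 3.24 CPM in ILC1 and 0.991 and 1.69 CPM in cNK, without a call. Adora3 did not pass the filter. It had 8, 16 and 27 counts in ILC1 pools 1 to 3 and 0 counts in each cNK library, and its exons overlap those of Tmigd3. Against a floor of 3 counts in each cNK library, its mean level of 0.613 CPM in ILC1 was at least 4.92-fold higher. With no filter on low counts, Adora3 was called higher in ILC1. The ILC1 pool with the most Adora3 was pool 3, and the source of these counts was not tested.

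**Figure D4:**
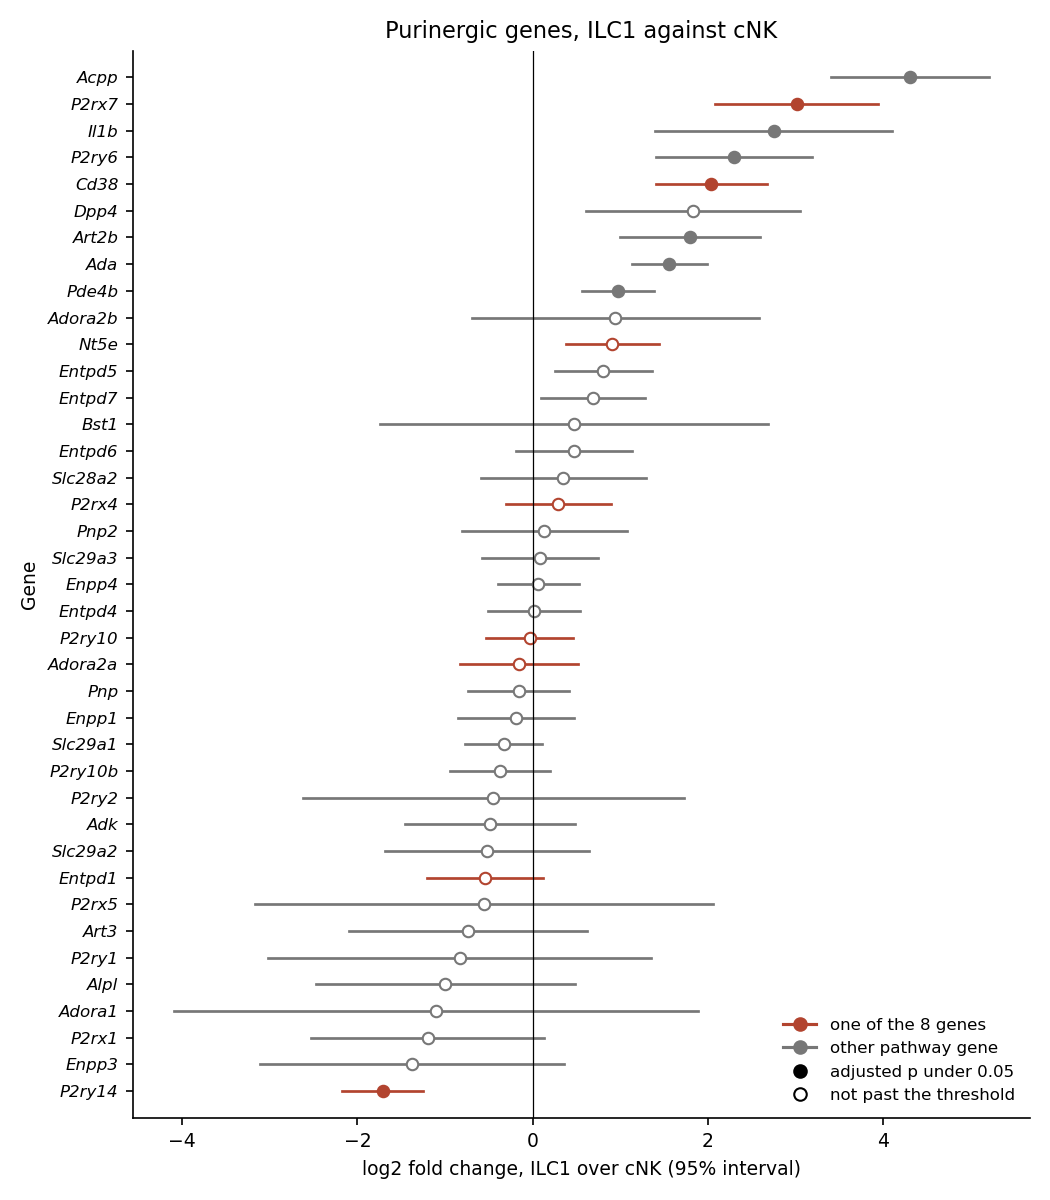
The log2 fold change of ILC1 over cNK with its 95% interval for the 8 genes (red) and other tested genes of the lists of receptors, ectoenzymes, NAD enzymes and adenosine breakdown and uptake, with Il1b and Pde4b (grey). Filled points had an edgeR adjusted p under 0.05, with Acpp at 4.31 highest and P2ry14 at -1.71 lowest.

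The genes whose pattern over the 6 libraries was nearest to that of each member were found as the smallest root mean square difference between centred log2 levels, among 9653 candidates with a mean of at least 5 CPM (9654 for P2rx7, which is itself below that level). For P2rx7 they were St3gal5 and Tgfa, at differences of 0.28 and 0.30. For Cd38 they were Rftn1 and Ubash3a, both at 0.08, and for P2ry14 Dusp22 (0.12) and Dcxr (0.16). P2rx4 was nearest to Arf2 (0.09) and Haghl (0.12), Nt5e to Tatdn2 (0.06) and Dennd11 (0.07), Entpd1 to Kctd11 (0.09) and Ezr (0.12), Adora2a to Zbtb5 (0.07) and Agtpbp1 (0.08), and P2ry10 to Ppp1r18 and Ftsj3 (both 0.02). The measure weighs the difference between populations and the differences between pools alike, and the libraries are shared by all genes.

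The calls of the 8 genes were set against other settings. P2rx7 and P2ry14 were called in all 6 fits that left out 1 library and in all 9 other settings, with log2 fold changes between 2.70 and 3.42 for P2rx7 and between -1.90 and -1.64 for P2ry14. Cd38 was called in 5 of the 6 and in all 9, between 1.61 and 2.21. P2rx4, P2ry10 and Adora2a were called in none of these 15 fits, and P2ry10 and Adora2a changed sign in some.

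**Figure D5:**
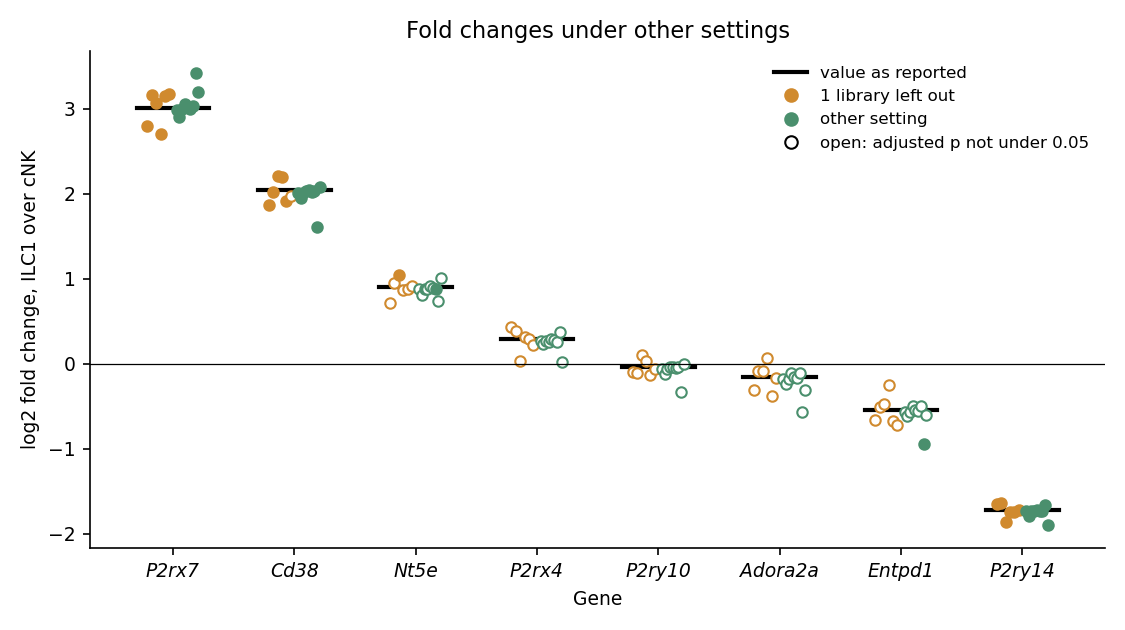
The log2 fold change of ILC1 over cNK of the 8 genes as reported (black line), with 1 library left out (orange) and under other scaling, tests, filters and covariates (green), with open points where the adjusted p was not under 0.05. P2rx7, Cd38 and P2ry14 stay apart from 0 throughout, and the values of P2ry10 and Adora2a lie on both sides of it.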

How the data were processed

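RNA sequencing covered 6 libraries, 3 pools each of ILC1 and cNK sorted from mouse kidney. The authors deposited raw counts per gene, which were whole numbers of at least 5 over the 6 libraries, and an averaged signal, the mean count of each population, used here only to check the columns. The submitters' processing notes list, for the build GRCm38, STAR 2.6.1, Trimmomatic 0.38, DESeq2 1.30.0, DESeq and R 4.03. Not given in the sources used here are the counting program, the annotation release, the read assignment and the use of strand. A row with no gene identifier and no counts was left out.

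The deposited counts went into edgeR 4.0.16, run in R 4.3.3 (TMM scaling, filterByExpr by group, robust quasi-likelihood fit on population, Benjamini-Hochberg adjustment over 16144 genes at 0.05). Standard errors were taken from the F statistic. Levels per length used merged exons of GENCODE M21, which is on GRCm38 and held 23836 of 23841 identifiers. In data simulated for this comparison, with 200 genes changed among 15736 tested, the test found 5 of the 50 genes with a 2-fold change, 27 of 50 at 4-fold, 42 of 50 at 8-fold and 45 of 50 at 16-fold, and 16 of 135 calls were of unchanged genes. Other settings tried were upper-quartile factors and DESeq2 size factors in edgeR, limma-voom (limma 3.58.1), the Wald test of DESeq2 1.42.0, 2 other filters, a block for the pool number, the mitochondrial share as a covariate, and left-out libraries. All 6 libraries held at least 22633440 counts, and 1 count was worth between 0.0342 and 0.0454 CPM.

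The 8 genes, the further lists and the settings were chosen with earlier results of these data known. Genes named beyond the 8 were those of the further lists past the threshold, the gene of highest level in a list without a call, the most abundant gene of the marker lists used, and the 2 nearest patterns of each gene. Others are said to be chosen after their values were seen or stand as context. The deposited lists of gene symbols without values were not used.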

Additional observations from a re-analysis of the deposited data

How the results depend on the processing

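Counts of calls moved with the setting. The 2 of 8 genes higher in ILC1 ranged from 1 to 3 and the 1 lower stayed at 1 over the fits that left out 1 library, and 2 were lower with the mitochondrial share as covariate. Of the other pathway genes, 6 were higher in ILC1, with 2 to 6 when 1 library was left out (2 without cNK pool 3, 3 without ILC1 pool 1, cNK pool 1 or cNK pool 2), 8 with the DESeq2 Wald test, and 7 with no low-count filter (with Adora3) or with the replicate block, and 0 were lower, with 0 to 1 when 1 library was left out. The count lower was 1 with DESeq2 size factors, upper-quartile factors, limma-voom, at least 1 CPM in 3 libraries or the mitochondrial share, and 2 with the DESeq2 Wald test or the replicate block. Over all genes, 657 were higher and 273 lower in ILC1. These were 1153 and 693 with the DESeq2 Wald test and 1107 and 675 with pool number as a replicate block, 431 were lower with ILC1 pool 3 and cNK pool 2 left out together, and leaving out 1 library gave 214 to 695 higher and 93 to 672 lower. The cause of these moves was not tested. P2ry10 changed sign without ILC1 pool 3 (log2 fold change 0.10) and without cNK pool 1 (0.04), with a range from -0.14 to 0.10 over the left-out libraries, and Adora2a without cNK pool 1 (0.07), with a range from -0.38 to 0.07, each without a call.

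The deviations of pools of the same number had correlations of 0.628, -0.115 and 0.071 over genes. Those of ILC1 pool 3 and cNK pool 2, the pool with the highest mitochondrial share in each population, had a correlation of 0.645. The value of 0.071 is that of ILC1 pool 3 with cNK pool 3, whose mitochondrial share was 10.35%. These values cannot settle whether pools of the same number share mice. The labels do not say that they do, so the numbers were not taken as pairs. The replicate block added Nt5e (log2 fold change 0.89, edgeR adjusted p = 0.0442) and, of the other pathway genes, Adcy7, Pde3b, Pde4d and Pycard to the called genes and lost Il1b (2.53, adjusted p = 0.0795). With the mitochondrial share as covariate Art2b was lost (adjusted p = 0.0785), as was Il1b with upper-quartile factors (0.0618), and Pde4b (0.131) and Art2b (0.0750) were lost when ILC1 pool 3 and cNK pool 2 were both left out. With the length of the longest transcript, 8 of 16 levels per length moved by more than 1 SD, and P2rx4 and Nt5e exchanged places in ILC1, as did Adora2a and Entpd1 in cNK. With 3 pools a population, a change of 2-fold was mostly missed in the simulation. The simulation gave 135 calls, against 930 in the reported fit, so its Benjamini-Hochberg threshold required a smaller unadjusted p. The share missed in the simulation may therefore be too high for these data, and how many such changes were missed here is not known. A gene without a call is thus not shown to be unchanged.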
